A study of Mus musculus with 40 samples.

Results

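The lungs of C3H mice were compared with those of AJ mice 24 h after aspiration of phosphate-buffered saline (PBS) alone, the vehicle of an allergen used elsewhere in the series. The comparison used the 10 arrays whose titles name these groups, 5 C3H and 5 AJ, of 40 in all. It addresses how the strains differ in the lung 24 h after an aspirate that held no allergen.

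In the series, total lung RNA was hybridised to Affymetrix arrays of a single colour, and the 8 groups of 5 cross strain (AJ or C3H), aspirate (allergen in PBS, or PBS alone) and time (6 h or 24 h). The strain of each array follows its title, since the descriptions of all 40, C3H arrays included, name AJ and call it hyperresponsive. The titles abbreviate the allergen as OVA and the descriptions as HDM, so it is called only allergen here. No label gives the C3H substrain, the sex, the age or any earlier sensitisation of the PBS mice, or says that array numbers are separate mice, so p-values measure only the spread between these samples, which may be technical. The other groups enter the results below only where the same strain contrast was measured in them.

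AJ and C3H are inbred strains, so every mouse of a strain carries the same alleles and a strain contrast mixes differences in transcript level with differences in transcript sequence. An array probe set is a group of short probes complementary to a reference transcript, and a base that differs in one strain weakens pairing and lowers the signal of that probe. Major histocompatibility complex (MHC) class I genes, which present peptides to cytotoxic T cells, are among the most variable genes between mouse strains. For this reason the probe sets of a gene are set side by side here, though some values that did not pass are not printed. A difference at 1 probe set is described as a difference at that probe set.

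Values are log2(intensity + 16), where the intensity is the authors' value for a probe set and 16 is added so that dim values do not dominate. Differences are C3H minus AJ on this scale, which understates the change of dim transcripts, and 18.1% of the values on the 10 arrays lay below an intensity of 16. Each difference has a standard error (SE) and an adjusted p from limma, with Benjamini-Hochberg adjustment over 22626 probe sets, and a probe set is called, or said to have been higher or lower, where the adjusted p was under 0.05. Levels are given with standard deviations (SD, n = 5). Array values are listed in order of replicate number. The number of arrays limits the precision.

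Array medians ran from 70.3 to 77.3 intensity units in AJ and from 70.1 to 75.7 in C3H, and no pair of arrays was identical. The log2 ratio of the 3′ to the 5′ Gapdh control, a measure of RNA integrity, ran from -0.47 to -0.07 in AJ and from -0.34 to 0.29 in C3H. The mean of 19 alveolar epithelium probe sets, the surfactant genes among them, lay between 10.33 and 10.52 in AJ and between 10.27 and 10.55 in C3H, so the labelled tissue carried its defining markers in both strains. Marker lists for skeletal and cardiac muscle and for fat varied from array to array, and their values are given further on, with the calls that ended when they entered the fit.

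Of 22626 probe sets, 424 were called (1.87%), 237 higher in C3H (1.05%) and 187 lower (0.826%). At 357 of the called probe sets (1.58% of all) the 5 C3H values did not overlap the 5 AJ values, beside 916 separate probe sets in all, called or not (4.05%). Differences were small at most of them: 50 called probe sets differed by under 0.5, 258 by 0.5 to 1, 98 by 1 to 2 and 18 by 2 or more. The median difference over all probe sets was -0.002. Called probe sets with a single gene symbol numbered 374 and belonged to 323 of 12393 genes (2.61%), 180 with a probe set higher in C3H (1.45%) and 146 with one lower (1.18%).

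The largest differences lay in H2-D1, the class I gene at the D end of the MHC. At its probe set 1425614_x_at the AJ arrays read 10.78, 11.33, 10.71, 10.72 and 11.10, and the C3H arrays 5.56, 5.64, 5.44, 6.11 and 5.50. Every AJ value was far above every C3H value. The difference was -5.28 ± 0.16 (SE, limma adjusted p = 1.82e-24), a 38.7-fold higher level in AJ on the log2(intensity + 16) scale and the largest of all called probe sets.

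Another H2-D1 probe set, 1450170_x_at, went the opposite way on the same arrays. It read 6.55, 6.32, 6.57, 6.81 and 6.37 in AJ and 10.02, 10.06, 9.92, 9.96 and 10.15 in C3H, without overlap. The difference was 3.50 ± 0.15 (adjusted p = 8.9e-20), or 11.3-fold, the largest in favour of C3H. Of 9 H2-D1 probe sets, 7 were lower in C3H, by between 1.51 and 5.28, 1 was higher and 1, 1451934_at, stood at -0.16 ± 0.18 (adjusted p = 0.844).

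H2-K1, the class I gene at the K end, had 1 of 4 probe sets called. This one, 1451931_x_at, read 10.46, 11.16, 10.66, 10.59 and 11.19 in AJ and 6.75, 7.21, 7.17, 7.64 and 7.22 in C3H, a difference of -3.62 ± 0.16 (adjusted p = 1.88e-19). The other H2-K1 probe sets stood at -0.67, -0.26 and 0.06 and did not pass. Class I genes are near-identical to one another over long stretches, and the IDs of all 4 H2-K1 probe sets and of 7 of 9 for H2-D1 end in _x_at, which marks probes that can pair with other transcripts, so which class I gene these probe sets read is uncertain.

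In the list of 17 measured MHC class I genes, 2 of 36 probe sets were higher in C3H and 9 lower (30.6% called, beside 1.87% of all), and their median difference was -0.15. Besides H2-D1 and H2-K1 these were H2-M3, a class Ib gene that presents formylated peptides, at -0.77 ± 0.14 (adjusted p = 0.00063), and H2-T24, another class Ib gene, at 0.59 ± 0.13 (adjusted p = 0.00796). The H2-T24 call ended without AJ replicate 4 (adjusted p = 0.0545) or C3H replicate 5 (0.0503), and with only the 10 arrays in the fit, which leaves fewer degrees of freedom (0.106). H2-M3 and H2-T24 have a single probe set each, so no other probe set bears on them.

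None of 22 MHC class II probe sets was called by limma (1 higher and 0 lower at an unadjusted p under 0.05). All 3 probe sets of H2-Ea, a class II alpha chain, missed the threshold, at -0.09, 0.00 and 0.10. The first and last of them were dim, with means of 4.952 and 4.301 in AJ and 4.865 and 4.404 in C3H. The difference between the class I and class II lists was not tested.

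Pdxdc1, a pyridoxal phosphate-binding decarboxylase-like protein, showed the same opposition within 1 gene. At 1419327_at AJ read 5.77, 6.22, 6.71, 6.40 and 5.92 and C3H 9.12, 9.10, 9.29, 8.97 and 8.98, while at 1452705_at AJ read 8.52, 8.41, 8.61, 8.44 and 8.53 and C3H 5.72, 6.14, 6.08, 5.89 and 5.68. Neither pair of groups overlapped. The differences were 2.88 ± 0.17 (adjusted p = 1.31e-15) and -2.60 ± 0.14 (adjusted p = 8.07e-17).

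The remaining Pdxdc1 probe sets were lower in C3H, 1436372_a_at by -1.29 ± 0.16 (adjusted p = 7.51e-07) and 1428200_a_at by -0.53 ± 0.13 (adjusted p = 0.0233). The call at 1428200_a_at ended without C3H replicate 2 or 5 or AJ replicate 3 or 4, with adjusted p up to 0.0989, and with only the 10 arrays in the fit (0.0687). Zfp991, a zinc finger gene, was the third gene called in both directions, at 1.13 ± 0.15 (adjusted p = 2.54e-06) and -0.70 ± 0.18 (adjusted p = 0.0247). The second of these calls ended when any of 6 of the 10 arrays was left out, with adjusted p up to 0.093, with only the 10 arrays in the fit (0.0617) and with a pseudocount of 1 (0.145).

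**Figure D1:**
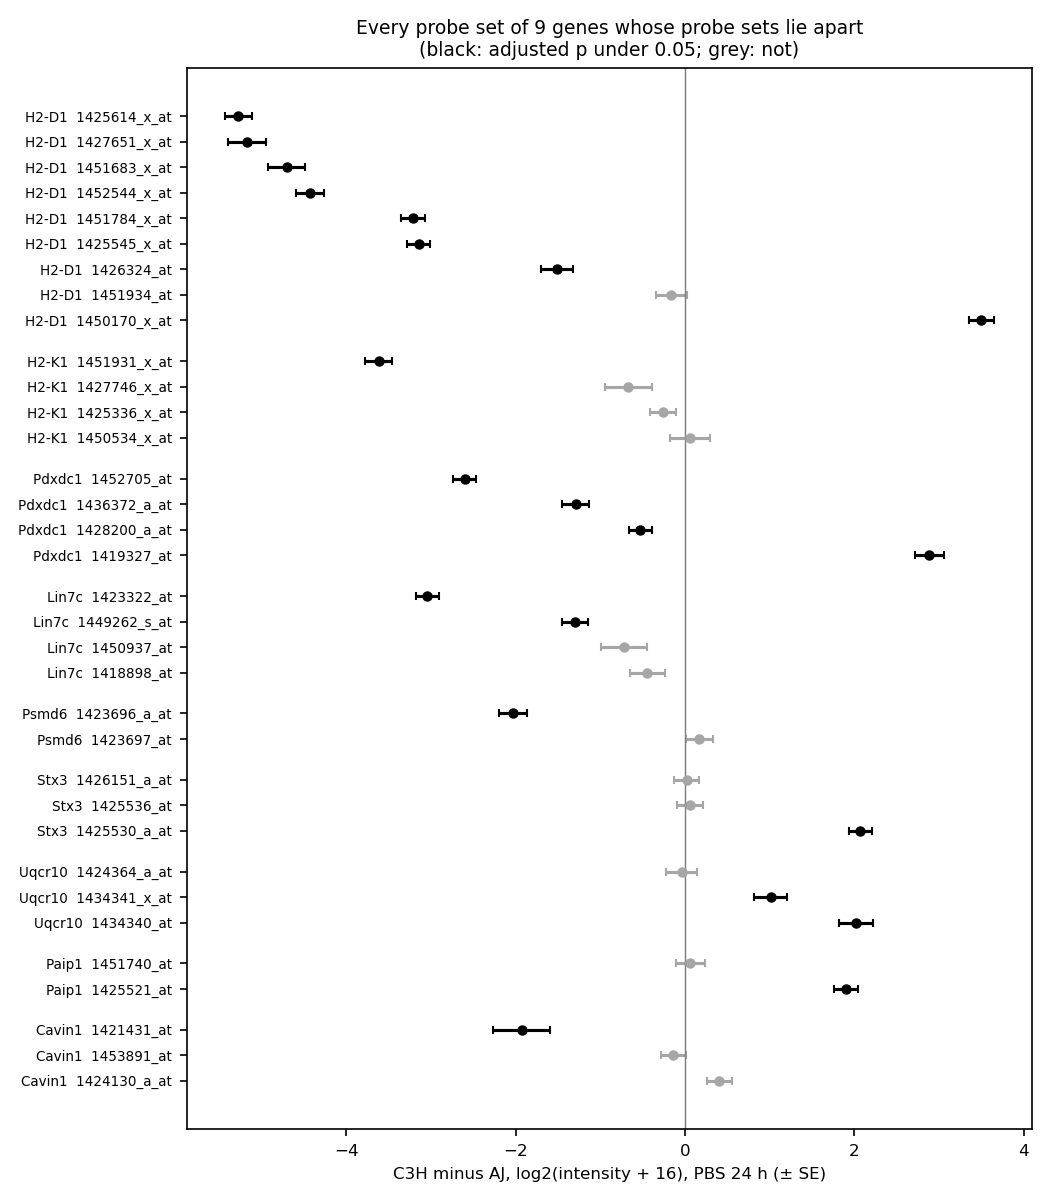
Differences between C3H and AJ (x axis, log2 scale, with SE bars) at every probe set of 9 genes (rows), PBS 24 h; black points passed an adjusted p of 0.05 and grey points did not. H2-D1 spans -5.28 to 3.50 and Pdxdc1 -2.60 to 2.88, and Psmd6, Stx3, Paip1, Cavin1 and H2-K1 each have 1 called probe set beside others that did not pass.

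Among 4956 genes with several probe sets, 188 had at least 1 called. All probe sets of the gene were called in the same direction in 15 genes, some were called in 170 and calls ran both ways in 3. In the 170 genes 278 probe sets were not called, of which 198 had the sign of their gene's largest called difference, 86 had an unadjusted p under 0.05 and 31 had a mean level, over all 40 arrays, below that of an intensity of 16. A test of whether the probe sets of a gene differed unequally between strains, chosen after the data were seen (limma's diffSplice, which treats the probe sets of an array as independent), was past its threshold in 71 of 4956 genes, 64 of them among the 188. It was past the threshold in 3 of the 15 genes called throughout, Nptx1 (diffSplice adjusted p = 4.92e-05), Hbegf (0.00495) and Col4a6 (0.0108).

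Several of the largest single differences were of the mixed kind. Lin7c, a scaffold protein of cell junctions, stood at -3.04 ± 0.14 at 1423322_at (adjusted p = 3.04e-19) and -1.30 ± 0.16 at 1449262_s_at (adjusted p = 3.39e-07), and its other probe sets at -0.72 and -0.45 did not pass. Psmd6, a subunit of the proteasome lid, stood at -2.03 ± 0.16 at one probe set (adjusted p = 1.74e-11) and 0.17 ± 0.16 at the other (adjusted p = 0.797). Cavin1, a coat protein of caveolae, stood at -1.93 ± 0.34 (adjusted p = 0.000268), -0.14 ± 0.15 (adjusted p = 0.832) and 0.41 ± 0.14 (adjusted p = 0.195).

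The same held on the C3H side. Stx3, a syntaxin of vesicle fusion, read 4.15, 4.15, 4.14, 4.23 and 4.17 in AJ and 5.86, 6.38, 6.25, 6.30 and 6.38 in C3H at 1425530_a_at, a difference of 2.07 ± 0.14 (adjusted p = 4.54e-14), and its other probe sets stood at 0.02 and 0.05. All 5 AJ values of that probe set were at an intensity under 16, so the fold in intensity is understated. Paip1, a regulator of translation, stood at 1.90 ± 0.15 (adjusted p = 5.51e-12) and 0.06 ± 0.17 (adjusted p = 0.95), and Uqcr10, a subunit of respiratory complex III, at 2.02, 1.01 and -0.04, of which the first 2 passed.

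Ywhaq, a 14-3-3 adaptor protein, had 4 of 7 probe sets called, all higher in C3H, at 1.89, 1.61, 1.21 and 0.57, and 3 at 0.37, 0.22 and 0.03 that did not pass. The smallest of these calls, 1420830_x_at, ended without C3H replicate 2, AJ replicate 2 or AJ replicate 3, with adjusted p up to 0.124, and with only the 10 arrays in the fit (0.167). The share called varied with the ending of the probe set ID, with no test of the difference: 2.58% of 1512 _x_at probe sets were called, 2.25% of 1469 _s_at, 1.76% of 4040 _a_at and 1.8% of the other 15605. For differences of at least 1 the shares were 1.19%, 0.817%, 0.347% and 0.461%.

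The 15 genes called at every probe set were Nptx1, Col4a6, Hbegf, Bst1, Dnajc10, Ccn4, Col3a1, Bpifb1, Itga6, Cxcl14, Mndal, Itm2a, Fjx1, Glo1 and Mfap5. The stretches that their probe sets read were not compared here. Itm2a stood at 0.60 and 0.72 and Fjx1 at -1.01 and -0.89, and the other genes are described below with their roles.

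Mndal, a DNA-binding member of the interferon-inducible p200 family, had the largest difference among them. Its probe set 1426906_at read 4.22, 4.62, 4.61, 5.07 and 4.54 in AJ and 6.80, 7.66, 7.73, 7.47 and 7.50 in C3H. The groups were far apart, with C3H replicate 1 the lowest of its group. The difference was 2.82 ± 0.17 (adjusted p = 2.86e-15), and 1452231_x_at gave 3.02 ± 0.28 (adjusted p = 7.21e-10).

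Of 7 probe sets of the p200 family, the 2 of Mndal were higher in C3H and 1 was lower (42.9% called, beside 1.87% of all), that of Ifi204, another DNA-sensing member, at -0.84 ± 0.19 (adjusted p = 0.00682). None of 33 probe sets of the interferon response list was called by limma (7 higher and 0 lower at an unadjusted p under 0.05), and their median difference was 0.18. Members of the p200 family are close in sequence and neighbours on their chromosome, so their probe sets may read one another's transcripts.

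Bst1, an ectoenzyme that makes cyclic ADP-ribose and marks stromal and myeloid cells, was higher in C3H. It read 4.39, 4.27, 4.41, 5.25 and 4.28 in AJ and 6.45, 6.58, 6.29, 6.46 and 6.75 in C3H at 1449453_at, with AJ replicate 4 above the other AJ arrays and below all C3H arrays. The differences were 1.99 ± 0.18 (adjusted p = 6.96e-10) and, at 1449454_at, 1.30 ± 0.16 (adjusted p = 2.81e-07).

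Hbegf, a heparin-binding ligand of the epidermal growth factor receptor, read 8.16, 7.57, 7.77, 7.75 and 7.29 in AJ and 9.22, 9.47, 9.16, 9.36 and 9.52 in C3H at 1418350_at. No C3H value reached down to the AJ range. The difference was 1.63 ± 0.15 (adjusted p = 6.32e-10), and 0.70 ± 0.14 at 1418349_at (adjusted p = 0.00289). Dnajc10, a disulfide reductase of the endoplasmic reticulum, was higher at 3 of 3 probe sets, by 1.47, 1.40 and 0.79.

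Itga6, the laminin-binding integrin alpha 6, was higher by 0.96 ± 0.14 (adjusted p = 2.64e-05) and 0.71 ± 0.20 (adjusted p = 0.0477). The second call ended when any of 9 of the 10 arrays was left out, with adjusted p up to 0.187, and with a pseudocount of 1 (0.0727). Cxcl14, a chemokine of epithelium and stroma, was higher by 1.01 ± 0.21 (adjusted p = 0.00375) and 0.76 ± 0.18 (adjusted p = 0.015), and the second call ended without AJ replicate 1 or 5 or C3H replicate 1 or 3, with adjusted p up to 0.0676, and with only the 10 arrays in the fit (0.0549). These were the only calls among 41 chemokine probe sets, 2 higher and 0 lower (4.88%, beside 1.87% of all).

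On the AJ side, Nptx1, a secreted pentraxin best known from neurons, read 7.10, 7.38, 6.84, 7.13 and 7.19 in AJ and 5.0, 5.14, 5.19, 5.05 and 4.63 in C3H at 1434877_at. The groups were separate, and the difference was -2.12 ± 0.13 (adjusted p = 4.89e-15), with -0.90 ± 0.17 at 1422130_at (adjusted p = 0.000683). Among genes with a call at 1 of 2 probe sets, the guanine nucleotide regulator Arap3 stood at -1.44 ± 0.20 (adjusted p = 6.91e-06) and 0.16 ± 0.18 (adjusted p = 0.838), and Sspn, a membrane protein of the dystrophin complex, at -1.35 ± 0.14 (adjusted p = 1.23e-08) and -0.50 ± 0.15 (adjusted p = 0.0967).

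**Figure D2:**
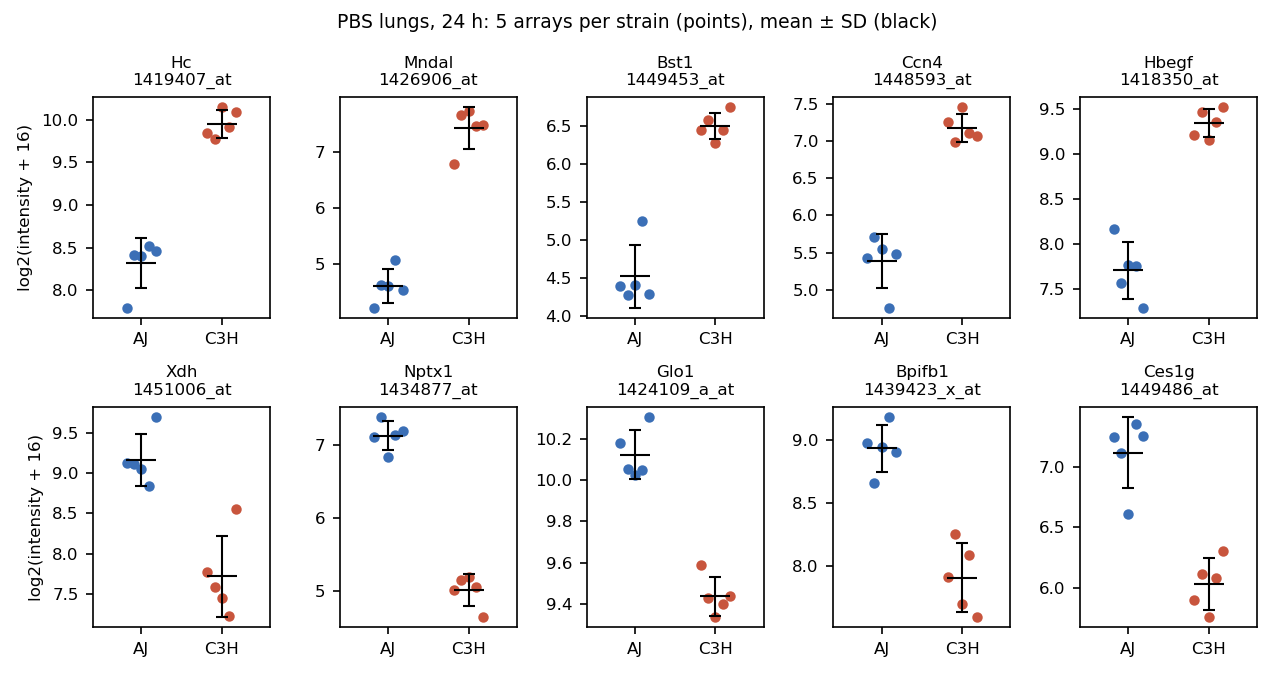
Levels of 10 genes, 1 probe set each, on each of the 5 AJ and 5 C3H arrays (points; y axis log2(intensity + 16), a scale of its own in each panel, not starting at 0), with mean and SD in black. For each gene the probe set with the lowest adjusted p at 24 h is shown, so the set was not chosen apart from these values. The top row is higher in C3H and the bottom row lower, and in none of the panels do the groups overlap.

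Extracellular matrix was the list with the most calls all in 1 direction among the 30 gene lists, which were chosen with earlier results of these data known. Of 63 extracellular matrix probe sets, 7 were higher in C3H and 0 lower (11.1% called, beside 1.05% of all probe sets called higher), the median difference was 0.18 and 45 of the 63 differences were positive. At an unadjusted p under 0.05, 21 were higher and 0 lower, beside 1161 higher and 1246 lower of all 22626. The called probe sets belonged to 6 of 34 measured genes.

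Col6a3, a chain of the microfibrillar collagen VI, read 9.02, 9.46, 9.34, 9.12 and 9.01 in AJ and 9.91, 9.96, 10.17, 9.89 and 9.83 in C3H, a difference of 0.77 ± 0.14 (adjusted p = 0.000322) without overlap. The lowest C3H value, 9.83, lay above the highest AJ value, 9.46. Col5a2, a fibril-nucleating collagen, stood at 0.64 ± 0.12 (adjusted p = 0.000583) and, at its other probe set, 0.56 ± 0.19 (adjusted p = 0.155). Thbs1, thrombospondin 1, stood at 0.79 ± 0.13 (adjusted p = 0.000138) and 0.51 ± 0.15 (adjusted p = 0.0914).

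Chains of the major fibrillar collagens were also called. Col1a2 stood at 0.73 ± 0.16 (adjusted p = 0.00665) and 0.26 ± 0.15 (adjusted p = 0.578). Col3a1 stood at 0.73 ± 0.15 (adjusted p = 0.00289) and 0.44 ± 0.12 (adjusted p = 0.0318), and the second of these calls ended when any of 7 of the 10 arrays was left out, with adjusted p up to 0.122. It also ended with only the 10 arrays in the fit (0.127), with arrays centred on their median (0.055) and with a pseudocount of 1 (0.0513). Sparc, a collagen-binding glycoprotein, stood at 0.44 ± 0.09 (adjusted p = 0.00163, but 0.0669 with only the 10 arrays in the fit) and 0.36 ± 0.12 (adjusted p = 0.178).

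For every gene of this list with a called probe set and a second probe set, the second had the same sign. Leaving out 1 array at a time left between 6 and 9 of the 63 called, and 5 were called with only the 10 arrays in the fit. The mean of the matrix list ran from 8.42 to 8.77 on the AJ arrays and from 8.77 to 8.86 on the C3H arrays, so that the groups touched. In bulk lung, fewer cells of a type and less RNA per cell cannot be told apart, here or in any result that follows.

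Mfap5 and Ccn4, matrix genes outside the list that were named for their calls, were also higher in C3H. Mfap5, a microfibril-associated glycoprotein, was higher at both probe sets, by 0.73 ± 0.16 (adjusted p = 0.00631) and 0.64 ± 0.11 (adjusted p = 0.000396). The first of these calls ended with only the 10 arrays in the fit (adjusted p = 0.0638). Ccn4, a matricellular protein of the CCN family, read 5.42, 5.71, 5.54, 4.76 and 5.49 in AJ and 7.25, 6.98, 7.45, 7.11 and 7.07 in C3H at 1448593_at. These groups were separate, and the differences were 1.79 ± 0.22 (adjusted p = 3.48e-07) and, at 1448594_at, 1.30 ± 0.19 (adjusted p = 9.73e-06).

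**Figure D3:**
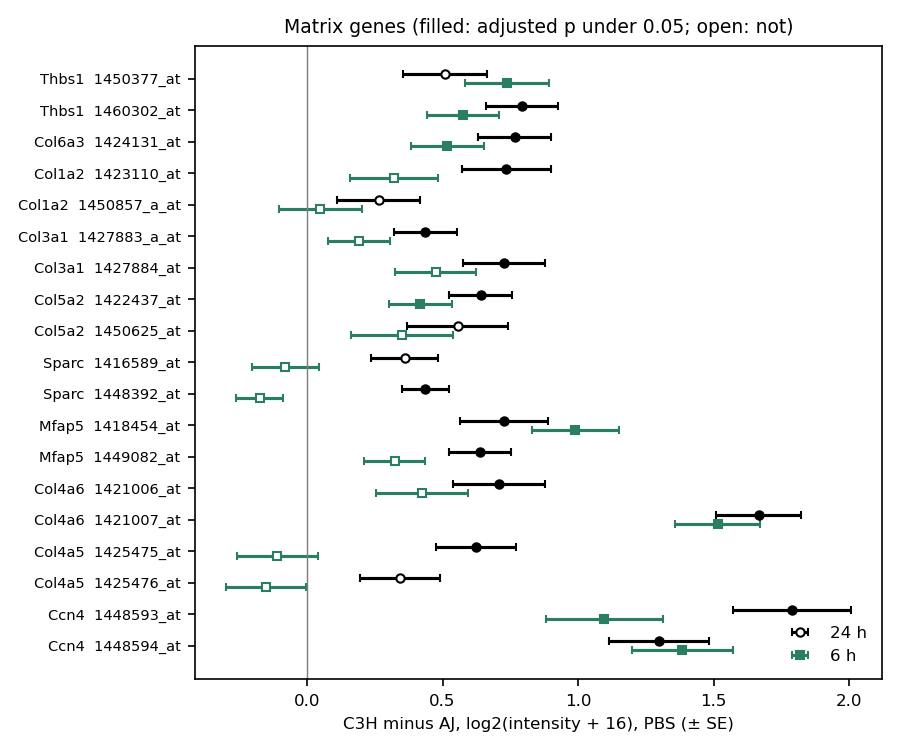
C3H minus AJ (x axis, log2 scale, SE bars) at every probe set of 10 matrix genes (rows) at 24 h (circles) and, in other arrays, at 6 h (squares); filled symbols passed an adjusted p of 0.05. Every gene shown has a probe set called higher at 24 h, so the set was not chosen apart from these values. All 24 h differences are above 0, while at 6 h those of Sparc and Col4a5 are below 0.

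Col4a6 and Col4a5, chains of basement membrane collagen IV, are transcribed from neighbouring starts on opposite strands of the X chromosome, and both had called probe sets. Col4a6 stood at 1.67 ± 0.16 at 1421007_at (adjusted p = 8.75e-10) and 0.71 ± 0.17 at 1421006_at (adjusted p = 0.0138), and Col4a5 at 0.62 ± 0.15 at 1425475_at (adjusted p = 0.0129) and 0.34 ± 0.15 at 1425476_at (adjusted p = 0.349). At 1421007_at AJ read 4.58, 4.45, 4.52, 4.31 and 4.32 and C3H 6.07, 6.26, 6.32, 5.80 and 6.06, clearly apart. The call at 1421006_at ended without AJ replicate 1 or 5 or C3H replicate 4 (adjusted p up to 0.0676), and that of Col4a5 without AJ replicate 2 or C3H replicate 3 (adjusted p up to 0.068). At PBS 6 h Col4a6 stood at 1.51 (1421007_at, called) and 0.42 (1421006_at, not called). Col4a5 stood there at -0.11 and -0.15, neither called, so the signs of the pair were opposite at 6 h.

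The upstream sequences of this pair are shown because the genes face each other across a gap of 1274 bases, and because members of the pair differed in the same direction at 24 h. They are reference sequences from RefSeq (build GRCm38.p6), each read 5′ to 3′ on the strand of its gene, chrX:141475169-141475369 on the plus strand for Col4a5 and chrX:141474096-141474326 on the minus strand for Col4a6, and end where the RefSeq gene begins. Capitals mark the motif CCAAT, searched on both strands.
Col4a5: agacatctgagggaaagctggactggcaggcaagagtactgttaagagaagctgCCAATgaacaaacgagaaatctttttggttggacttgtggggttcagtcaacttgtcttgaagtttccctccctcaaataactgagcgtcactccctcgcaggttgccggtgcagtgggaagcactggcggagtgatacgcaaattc
Col4a6: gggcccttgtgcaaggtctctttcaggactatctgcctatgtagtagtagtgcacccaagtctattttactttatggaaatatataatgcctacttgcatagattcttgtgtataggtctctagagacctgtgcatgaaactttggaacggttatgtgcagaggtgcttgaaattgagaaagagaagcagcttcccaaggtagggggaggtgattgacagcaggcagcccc
The motif occurred 1 time in the 201 bases before Col4a5 and 0 times in the 231 bases before Col4a6, beside 28.6% and 32.3% of 32851 RefSeq promoter windows of those lengths that hold it. A match of letters is a description, and its absence says only that these letters are not in this window. Neither sequence is that of AJ or C3H.

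Hc encodes complement component C5, the precursor of an anaphylatoxin that draws and activates leukocytes, and A/J mice are known for a deficiency of it. Its probe set read 7.80, 8.42, 8.40, 8.52 and 8.46 in AJ and 9.84, 9.77, 10.14, 9.91 and 10.09 in C3H. AJ replicate 1 lay below the other AJ arrays, and the strains did not overlap. The level was 8.32 ± 0.29 in AJ and 9.95 ± 0.16 in C3H (SD, n = 5), a difference of 1.63 ± 0.14 (adjusted p = 1.6e-10). Hc has 1 probe set, so no other probe set bears on it.

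Of 31 complement probe sets, 3 were higher in C3H and 0 lower (9.68% called, beside 1.87% of all, and 1.05% of all higher). Besides Hc these were C6, a component of the membrane attack complex, at 0.80 ± 0.19 (adjusted p = 0.0158), and Cd59a, an inhibitor of that complex, at 0.52 ± 0.13 (adjusted p = 0.027) and, at a probe set that did not pass, 0.59 ± 0.17 (adjusted p = 0.0666). The C6 call ended without AJ replicate 1 or 4 or C3H replicate 3 (adjusted p up to 0.0727), and the Cd59a call when any of 6 of the 10 arrays was left out (adjusted p up to 0.129). Both ended with only the 10 arrays in the fit, at 0.0724 for C6 and 0.144 for Cd59a.

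Among 31 probe sets of innate sensors, 1 was higher and 1 lower (6.45% called, beside 1.87% of all). Tlr1, a receptor of bacterial lipopeptides, stood at -0.80 ± 0.17 (adjusted p = 0.0048), and with only the 10 arrays in the fit its adjusted p was 0.0832. Dysf, dysferlin, a membrane repair protein placed in this list for macrophage function and known to carry a mutation in A/J mice, stood at 0.67 ± 0.17 (adjusted p = 0.0176). That call ended without AJ replicate 1 (adjusted p = 0.11) or C3H replicate 1 (0.0557) or 3 (0.0628), and with only the 10 arrays in the fit (0.109).

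Tlr4, the lipopolysaccharide receptor, which is mutated in 1 well-known C3H substrain, had no called probe set, at -0.38 ± 0.22 (adjusted p = 0.59) and 0.05 ± 0.13 (adjusted p = 0.952). A mutation that changes the protein need not change the signal of a probe set. The labels do not say which substrain was used.

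Of 93 probe sets of xenobiotic and antioxidant enzymes 1 was higher in C3H and 5 lower (6.45% called, beside 1.05% of all higher and 0.826% lower), with a median of -0.09, and 2 higher and 15 lower at an unadjusted p under 0.05. Xdh, xanthine dehydrogenase, which makes uric acid, read 9.12, 9.12, 9.05, 8.84 and 9.70 in AJ and 7.78, 7.58, 7.45, 7.22 and 8.55 in C3H. Replicate 5 was the highest of both strains, without overlap between them. The difference was -1.45 ± 0.18 (adjusted p = 4.37e-07).

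Ces1g, a carboxylesterase, read 7.25, 7.12, 6.61, 7.35 and 7.25 in AJ and 5.89, 6.12, 5.75, 6.08 and 6.31 in C3H, a difference of -1.09 ± 0.15 (adjusted p = 6.09e-06). Glo1, glyoxalase 1, which detoxifies methylglyoxal, was lower in C3H at 3 of 3 probe sets, by -0.69 ± 0.10, -0.59 ± 0.10 and -0.59 ± 0.13 (adjusted p between 7.38e-06 and 0.00595). Carboxylesterase genes are close in sequence, and Ces1g has 1 probe set here. Gsto1, an omega-class glutathione transferase, was higher, at 0.50 ± 0.12 (adjusted p = 0.00994) and, at a probe set that did not pass, 0.43 ± 0.28 (adjusted p = 0.64).

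Bpifb1, a secreted protein of airway goblet cells and glands, was lower in C3H at both probe sets. At 1423719_at it read 9.65, 9.45, 10.09, 9.90 and 9.59 in AJ and 8.94, 8.96, 8.93, 9.21 and 8.78 in C3H, separate groups, with a difference of -0.77 ± 0.16 (adjusted p = 0.00292). At 1439423_x_at the difference was -1.03 ± 0.19 (adjusted p = 0.00079). These were the calls of the mucus and goblet cell list, 0 of 27 probe sets higher and 2 lower (7.41%, beside 0.826% of all lower).

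The other goblet cell genes measured did not pass. Clca1, a secreted regulator of mucus, read 5.0, 4.91, 7.70, 4.80 and 4.79 in AJ and 4.33, 4.08, 4.14, 6.66 and 4.15 in C3H at 1416306_at, with 1 high array in each strain, AJ replicate 3 and C3H replicate 4, and a difference of -0.77 ± 0.55 (adjusted p = 0.693). The other Clca1 probe set, 1459889_at, stood at -0.03 ± 0.20 (adjusted p = 0.979). Itln1, intelectin 1, was highest in AJ replicate 3, at 5.87, and within C3H in replicate 4, at 4.77, with a difference of -0.58 ± 0.26 (adjusted p = 0.391). The gel-forming mucin Muc5ac stood at -0.09 ± 0.32 (adjusted p = 0.965) and was dim, with means of 4.945 in AJ and 4.856 in C3H.

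None of 39 probe sets of the type 2 response list was called by limma (4 higher and 5 lower at an unadjusted p under 0.05). The cytokines Il4, Il5 and Il13 stood at -0.13, 0.01 and 0.02, and the eosinophil chemokine Ccl11 at -0.04 ± 0.27. In all 10 arrays Il13 lay between 4.26 and 4.46, near the floor that the pseudocount sets. Il5 was also dim, with means of 4.584 in AJ and 4.595 in C3H. None of 54 probe sets of airway tone and responsiveness was called (5 higher and 1 lower at an unadjusted p under 0.05), nor the single probe set of Rassf1, a scaffold of Hippo signalling, at 0.50 ± 0.29 (adjusted p = 0.564).

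Klf9, a transcription factor induced by glucocorticoids, had 1 of 7 probe sets called, at -0.78 ± 0.17 (adjusted p = 0.00441), and all 7 differences were below 0, the smallest at -0.07. It was the only call among 33 probe sets of glucocorticoid and stress response (3.03%, beside 1.87% of all). Of 31 endothelial probe sets 2 were higher in C3H and 0 lower (6.45% called, beside 1.87% of all, and 1.05% of all higher). Vwf, von Willebrand factor, stood at 0.78 ± 0.15 (adjusted p = 0.00121), and Cdh5, the endothelial cadherin, at 0.58 ± 0.13 (adjusted p = 0.00987) and 0.39 ± 0.36 (adjusted p = 0.789), and the Cdh5 call ended without AJ replicate 1 (adjusted p = 0.0553) or with only the 10 arrays in the fit (0.0506).

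Of 30 lists, 19 had no probe set called by limma. Their 550 probe sets were summed list by list, so a gene on several lists counts in each. Of these, 34 were higher and 35 lower at an unadjusted p under 0.05 (10.6% of all probe sets were under it). Among the 19 lists were the markers of T and NK cells (33 probe sets, median 0.003), B and plasma cells (36, median 0.02), macrophages with monocytes and dendritic cells (38, median -0.005), neutrophils (17, median 0.06) and eosinophils with mast cells (22, median 0.03). Alveolar, club, ciliated and smooth muscle markers also had none, with medians of -0.06, -0.18, -0.15 and -0.08. Of the 14 club cell probe sets 1 difference was positive, and 5 were lower at an unadjusted p under 0.05. The club cell list holds Kdr, which is also on the endothelial list, so its count is not one of club cell genes alone.

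The strains overlapped in their fat and muscle markers. The mean of 23 adipose probe sets was 8.07, 8.58, 9.35, 8.11 and 7.66 on the AJ arrays and 6.98, 8.41, 7.81, 7.85 and 7.90 on the C3H arrays, with none called (0 higher and 6 lower at an unadjusted p under 0.05). Ucp1, the uncoupling protein of brown fat, ran from 5.74 to 11.25 in AJ and from 4.25 to 8.98 in C3H, overlapping, at -3.04 ± 1.23 (adjusted p = 0.302). With the muscle and adipose means as covariates 382 probe sets were called, 352 of them among the 424. Calls that ended in that fit were those of Itga6 1422444_at (adjusted p = 0.108), Mboat1 1435323_a_at (0.0963), Zfp991 1424784_at (0.0759), Elavl1 1448151_at (0.0694), Ywhaq 1420830_x_at (0.053) and Nnt 1416105_at (0.0519), among the probe sets named here.

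The mean of 48 cardiac and skeletal muscle probe sets was 7.82, 7.96, 8.08, 7.43 and 8.18 in AJ and 7.55, 7.79, 7.41, 7.36 and 7.63 in C3H. The median difference of this list was -0.38, and 1 probe set was higher in C3H (2.08%, beside 1.05% of all higher) and 0 lower. That was Actc1, cardiac actin, at 0.95 ± 0.26 (adjusted p = 0.0445), opposite in sign to the list, and its call ended when any of 9 of the 10 arrays was left out (adjusted p up to 0.113), and with a pseudocount of 1 (0.0597).

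**Figure D4:**
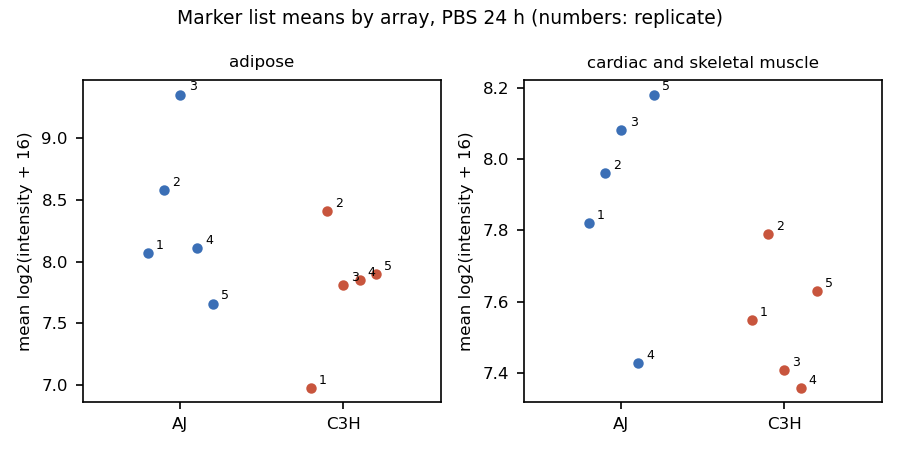
Mean level of the adipose list (23 probe sets) and the cardiac and skeletal muscle list (48 probe sets) on each array, PBS 24 h (y axis log2(intensity + 16), not starting at 0; numbers give the replicate). AJ replicate 3 is highest for fat at 9.35 and C3H replicate 1 lowest at 6.98, and the strains overlap in both panels.

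Y-linked genes were measured in both strains. Eif2s3y, a translation initiation factor subunit, read 6.01, 5.99, 5.69, 5.84 and 6.40 in AJ and 6.82, 7.47, 7.64, 7.46 and 7.30 in C3H, separate groups, with a difference of 1.35 ± 0.20 (adjusted p = 1.51e-05). Kdm5d, a histone demethylase, stood at 0.72 ± 0.15 (adjusted p = 0.00359), 0.20 and -0.04 at its 3 probe sets. Uty, a Y-linked relative of the demethylase Kdm6a, stood at 0.78 ± 0.20 (adjusted p = 0.022) and 0.63 ± 0.18 (adjusted p = 0.0593), and the first call ended when any of 6 of the 10 arrays was left out (adjusted p up to 0.0825).

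Xist, the RNA that silences an X chromosome in females, stood at -0.09, 0.05 and -0.01 at its 3 probe sets, with none called. Its array values ran from 4.10 to 5.02, from 4.11 to 4.60 and from 6.23 to 6.99. No array stood apart from the rest of its strain at these 3 probe sets or at Eif2s3y.

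The order of the called genes along the chromosomes was counted. Of 12369 genes placed in chromosome order by RefSeq, 323 had a called probe set, and 57 of these (17.6%) had a called neighbour, beside 4.67% of the uncalled genes. There were 27 runs of 2 or more called genes in a row, and 3 of them held 3 genes. These were Iah1, Adam17 and Ywhaq on chromosome 12, Nnt, Paip1 and 4833420G17Rik on chromosome 13, and Pxk, Pdhb and Acox2 on chromosome 14.

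Within a run the directions could agree or differ. Iah1, an acyl esterase, stood at 0.78 ± 0.14 (adjusted p = 0.000423), and Adam17, the sheddase of tumour necrosis factor, at 1.07 ± 0.16 (adjusted p = 3.27e-05), 0.33 and -0.04, beside Ywhaq above, all higher in C3H where called. Pxk, a sorting nexin with a kinase-like domain, stood at -0.81 ± 0.12 (adjusted p = 3.07e-05), Pdhb, a subunit of pyruvate dehydrogenase, at -0.94 ± 0.16 (adjusted p = 0.000235) and -0.31 (adjusted p = 0.384), and Acox2, a peroxisomal oxidase, at -0.47 ± 0.11 (adjusted p = 0.00836), all lower where called. The Acox2 call ended without C3H replicate 2 (adjusted p = 0.0544).

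The run on chromosome 13 held both directions. Nnt, the nicotinamide nucleotide transhydrogenase of mitochondria, stood at -0.35 ± 0.09 (adjusted p = 0.0247) and, at a probe set that did not pass, -0.46 ± 0.20 (adjusted p = 0.364). Its neighbour Paip1 was higher in C3H, as given above, and 4833420G17Rik was lower at 2 of 3 probe sets, by -0.78 ± 0.10 (adjusted p = 1.09e-06) and -0.76 ± 0.15 (adjusted p = 0.00142), with -0.65 ± 0.21 at the third (adjusted p = 0.125). The run of 3 rests on the Nnt call, which ended when any of 7 of the 10 arrays was left out (adjusted p up to 0.0963), with arrays centred on their median (0.0806) and with only the 10 arrays in the fit (0.128).

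Pairs of called neighbours included Traf1 with Hc, Col3a1 with Col5a2, Ifi204 with Mndal, Col4a6 with Col4a5 and, on the Y chromosome, Kdm5d with Eif2s3y. Traf1, an adaptor of tumour necrosis factor receptors, stood at -0.69 ± 0.14 (adjusted p = 0.00328), opposite to Hc. Ifi204 and Mndal were also opposite, while both members of the Col3a1 and Col5a2 pair were higher in C3H. Shared counts of neighbours are a description, and no test was run on them.

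The same contrast at 6 h after PBS used 10 other arrays, sharing with the 24 h contrast only the estimate of the spread. At 6 h 975 probe sets were called (4.31%), 534 higher in C3H (2.36%) and 441 lower (1.95%), and 550 without AJ PBS 6 h replicate 3. That array had the highest log2 3′ to 5′ Gapdh ratio of the PBS arrays, at 0.84. C3H PBS 6 h replicate 2 had the lowest mean correlation with its own group, at 0.939. Whether RNA integrity bears on the 6 h calls was not tested. Of the 424 called at 24 h, 379 had the same sign at 6 h and 232 were called in the same direction, which is 54.7% of the 24 h calls and 23.8% of the 6 h calls. The share rose with the size of the difference: 28% of 50 probe sets under 0.5, 49.2% of 258 from 0.5 to 1, 75.5% of 98 from 1 to 2 and 94.4% of 18 at 2 or more.

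Of the 116 called differences of at least 1, 111 had the same sign at 6 h, 76 had a 6 h value within 0.5 of the 24 h value and 10 had one over 1 away. Cavin1 1421431_at was among the latter, at -0.69 at 6 h beside -1.93 at 24 h. H2-D1 1425614_x_at stood at -5.04 at 6 h, H2-D1 1450170_x_at at 3.50, Pdxdc1 1419327_at at 2.97, Lin7c 1423322_at at -3.19 and Hc at 1.58, beside -5.28, 3.50, 2.88, -3.04 and 1.63 at 24 h. In allergen-treated lungs Hc stood at 0.99 (adjusted p = 9.5e-06) at 24 h and 1.17 (adjusted p = 3.11e-07) at 6 h. Of the 424 probe sets, 172 were called in the same direction in all 4 strain contrasts, PBS and allergen at both times, and 104 were called in none of the other 3, in which 4.31%, 6.66% (allergen 24 h) and 7.77% (allergen 6 h) of probe sets were called.

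Some of the probe sets called at 24 h after PBS were not called in every other group. Bpifb1 stood at -0.59 (adjusted p = 0.0268) and -0.81 (adjusted p = 0.00963) at PBS 6 h, and at 0.16 (adjusted p = 0.634) and 0.23 (adjusted p = 0.542) at 24 h after allergen. Ces1g stood at -0.43 (adjusted p = 0.0982) at PBS 6 h and 0.47 (adjusted p = 0.0515) at 24 h after allergen. At 6 h after allergen Bpifb1 stood at -0.23 (adjusted p = 0.472) and -0.39 (adjusted p = 0.25) and Ces1g at -0.17 (adjusted p = 0.604), below 0 as in PBS lungs. Whether these differ from the PBS 24 h values was tested for PBS 6 h alone, where neither gene passed (adjusted p between 0.155 and 0.777). Of the 63 probe sets of the matrix list, 7 were higher in C3H and 0 lower at PBS 6 h, beside 2.36% of all higher. The list mean ran there from 8.565 to 8.746 on the AJ arrays and from 8.838 to 8.948 on the C3H arrays, without overlap. Among matrix genes called at PBS 24 h, Col1a2 1423110_at and Col3a1 1427884_at were not called at PBS 6 h (adjusted p = 0.312 and 0.0622). Col6a3 and Col5a2 1422437_at were called there (0.0199 and 0.0317). At 24 h after allergen none of these matrix probe sets was called, at 0.09, 0.02, 0.39 and -0.08 (adjusted p between 0.077 and 0.959).

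**Figure D5:**
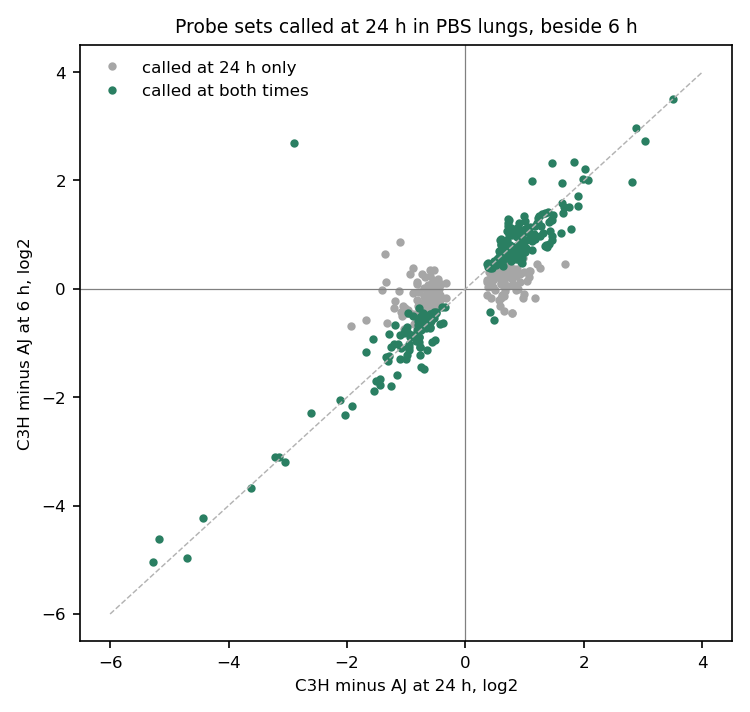
C3H minus AJ at 24 h (x axis) and at 6 h (y axis), log2 scale, for the 424 probe sets called at 24 h; green points were also called at 6 h, grey points were not, and the dashed line marks equal values. Of the 18 points beyond 2, 17 were called in the same direction at 6 h and Malat1 1438403_s_at, at -2.89 and 2.69, in the opposite one, and 379 of the 424 have the same sign at both times.

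Few probe sets passed a test of whether the strain difference itself differed between the times, which does not show that the others were equal. A test of the 24 h difference minus the 6 h difference called 44 probe sets (0.194%), 24 of them higher (0.106%) and 20 lower (0.0884%), and 14 were among the 424. This count moved by over 1.5 times when any of 13 of the 20 PBS arrays was left out, between 12 without AJ PBS 24 h replicate 1 and 93 without AJ PBS 6 h replicate 1, and it was 6 with only the PBS arrays in the fit.

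Malat1, an abundant nuclear long noncoding RNA, had the widest gap. At 1438403_s_at AJ read 11.23, 10.20, 10.48, 8.76 and 9.17 and C3H 9.10, 6.67, 5.98, 6.78 and 6.84 at 24 h, overlapping only through C3H replicate 1. The difference was -2.89 ± 0.70 (adjusted p = 0.0152) at 24 h and 2.69 (adjusted p = 0.019) at 6 h, and the gap between them -5.59 ± 0.99 (adjusted p = 0.011). The 24 h call ended without AJ replicate 1 (adjusted p = 0.0678) or C3H replicate 3 (0.0629), and the other 4 Malat1 probe sets, between -1.60 and -0.12, were not called at either time.

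Zdhhc1, a palmitoyltransferase, stood at -1.36 ± 0.24 (adjusted p = 0.000255) at 24 h and 0.64 (adjusted p = 0.126) at 6 h, a gap of -2.0 ± 0.34 (adjusted p = 0.011). Nrp1, an endothelial co-receptor of vascular endothelial growth factor, had 1 of 3 probe sets called, which stood at 0.78 ± 0.16 (adjusted p = 0.00293) at 24 h and -0.44 (adjusted p = 0.122) at 6 h, a gap of 1.22 ± 0.23 (adjusted p = 0.0119). Cdh5 had a gap of 0.90 ± 0.19 (adjusted p = 0.031), and Sparc, of the matrix list, one of 0.61 ± 0.12 (adjusted p = 0.0237).

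Calls of opposite direction at the 2 times were made at 3 probe sets, that of Malat1 above, 1 of Mboat1 and 1 of Elavl1. Mboat1, a lysophospholipid acyltransferase, stood at 0.48 ± 0.13 (adjusted p = 0.0467) and at -0.58 (adjusted p = 0.00608) at 6 h. Elavl1, an RNA-binding protein that stabilises messages, stood at 0.41 ± 0.11 (adjusted p = 0.0307) and at -0.42 (adjusted p = 0.0177) at 6 h. At 24 h the Mboat1 call ended when any of 8 of the 10 arrays was left out (adjusted p up to 0.188) and the Elavl1 call with any of 6 (adjusted p up to 0.151). Both also ended with only the 10 arrays in the fit, at 0.112 for Mboat1 and 0.114 for Elavl1, the Mboat1 call with a pseudocount of 1 (0.0612) and with the variance trend in eBayes (0.0512), and the Elavl1 call with arrays centred on their median (0.0702).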

How the data were processed

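The authors deposited linear intensity values, 1 for each probe set of an array; which software made them is not given in the sources used here. Their mean after trimming extreme probe sets was 150.037 to 150.042 on the 10 arrays, so the authors had scaled them. No detection calls were used. Of 22690 probe sets, 64 controls were left out. By the platform annotation 20380 had 1 symbol, 691 several and 1555 none; 20351 matched RefSeq (GRCm38.p6), used for names and order.

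Values were taken as log2(intensity + 16), and 8 group means were fitted to 40 arrays by lmFit and eBayes of limma 3.58.1 (R 4.3.3; 32 residual and 4.22 prior degrees of freedom), two-sided, threshold 0.05. The fit was tested on simulated data. The members and the 30 gene lists were chosen with earlier results of these data known. Named were the 14 genes highest and the 14 lowest in C3H by difference, called and with separate groups, the 3 largest called genes of each list, the 6 genes with the widest gap between probe sets, the 6 largest time differences of each sign and preset genes, of which not all are printed. Genes named for their neighbours, the Y-linked genes and Xist, genes called at every probe set beyond that rule, Sparc, H2-T24, Gsto1, Zfp991, Ucp1, Mboat1, Elavl1 and those under other observations were chosen after their values were seen. Alternatives were other normalizations, pseudocounts, filters, variance models, sets of arrays, gene summaries, a replicate block and leaving out each array.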

Additional observations from a re-analysis of the deposited data

Results flagged for a closer look

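In 30 of 370 groups of 5 arrays at printed probe sets, 15 in each strain, the highest or lowest array stood apart from the other 4 by Dixon's criterion, which chance meets in about 1 of 20 groups. No explanation was tested for any of them.

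C3H replicate 1 was low for Mndal, at 6.80 (others 7.47 to 7.73) and 6.88 (others 7.97 to 8.16), for Iah1, at 5.87 (others 6.38 to 6.44), and for Stx3 1425530_a_at, at 5.86 (others 6.25 to 6.38). It was high for Malat1, at 7.83 (others 6.18 to 6.41) and 9.10 (others 5.98 to 6.84). In C3H replicate 2 Psmd6 1423697_at was high, at 8.93, and Thbs1 1450377_at low, at 7.42. In C3H replicate 3 Mfap5 1449082_at stood at 7.93, Tsc22d1 1456132_x_at at 5.52 and Tlr4 1418162_at at 5.38, the last of them low. C3H replicate 4 was high for Clca1, at 6.66 (others 4.08 to 4.32), for Itln1, at 4.77, and for H2-D1 1452544_x_at, at 7.34. In C3H replicate 5 H2-K1 1427746_x_at was low, at 8.62.

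AJ replicate 3 was high for Clca1, at 7.70 (others 4.79 to 5.0), Actc1, at 9.88 (others 9.02 to 9.24), Cavin1 1424130_a_at, at 9.88, Dnajc10 1426904_s_at, at 8.14, and Deptor 1451348_at, at 8.19. AJ replicate 1 was high for Cavin1 1453891_at, at 5.10, and Pdxdc1 1436372_a_at, at 7.63, and low for Hc, at 7.80. AJ replicate 4 was high for Bst1 1449453_at, at 5.25, Stx3, at 4.23 and 8.40, and low for H2-T24, at 4.86. AJ replicate 5 was high for Adam17 1421858_at, at 7.54, and Itga6 1422445_at, at 8.57, and low for Rbp7, at 4.81.

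The strain difference at 24 h differed from that at 6 h, by limma's test of the gap, at 7 printed probe sets. The gap was -5.59 for Malat1 1438403_s_at, -2.0 for Zdhhc1, 1.22 for Nrp1 1448944_at, 1.06 for Mboat1, 0.90 for Cdh5 1433956_at, 0.83 for Elavl1 1448151_at and 0.61 for Sparc 1448392_at. Each of the 7 differences had opposite signs at the 2 times.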

How the results depend on the processing

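The count of 424 kept within 1.5 times under every alternative run per probe set, from 336 without C3H replicate 4 to 465 with a pseudocount of 64 (336 to 407 leaving out 1 array), and between 299 and 415 of the 424 probe sets were called again under alternatives that tested all of them. It was 239 with the brightest probe set of each gene and 257 with the mean of its probe sets, which test fewer features. The replicate block, from numbers in the titles, gave 419 calls, 232 repeated at 6 h, 996 at 6 h and 37 between times. Deviations of same-numbered arrays correlated from -0.092 to 0.106, beside -0.168 to 0.259 for arrays of unlike number. No pairing by number was seen, and so few correlations cannot exclude it. With only the compared arrays in the fit, which leaves fewer degrees of freedom, 330 probe sets were called at 6 h, 144 were repeated and 6 differed between times. With muscle and adipose covariates 13 differed between times. Leaving out 1 array gave ranges of 550 to 1076 at 6 h, 205 to 244 for repeats, 12 to 93 between times, 11 to 14 genes called throughout, 6 to 9 matrix probe sets and 10 to 11 class I probe sets. The count between times moved by over 1.5 times without AJ 24 h replicate 1 or 3, C3H 24 h replicate 2, 3, 4 or 5, AJ 6 h replicate 1, 2, 3 or 5, or C3H 6 h replicate 2, 3 or 5. Of 119 called probe sets looked at singly, 92 kept direction and call in every alternative that tested them (84 in 19 and 8 in 18, since the filter on dim probe sets left some out) and 27 lost the call in at least 1. No direction reversed. Elsewhere the cause of a change was not tested.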

Other observations

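Other large strain differences fell outside the lists, and the genes here were chosen after their values were seen. Plpp1, a lipid phosphate phosphatase, was higher in C3H at 2 of 3 probe sets, by 1.46 ± 0.13 (limma adjusted p = 1.91e-10) and 1.37 ± 0.12 (adjusted p = 1.1e-10), and stood at 0.22 ± 0.13 at the third (adjusted p = 0.599). Rarres2, which encodes the chemoattractant chemerin, was higher at 2 of 3, by 1.23 ± 0.15 at each (adjusted p = 3.48e-07), with levels of 8.72 ± 0.31 in AJ and 9.96 ± 0.29 in C3H at 1428538_s_at (SD, n = 5). The third Rarres2 probe set stood at 0.21 and did not pass. Lbp, the plasma protein that hands lipopolysaccharide to its receptor complex, read 8.26 ± 0.19 in AJ and 9.28 ± 0.10 in C3H, a difference of 1.02 ± 0.13 (adjusted p = 9.52e-07). Procr, the endothelial receptor of protein C, was higher by 1.10 ± 0.16 (adjusted p = 9.58e-06), and Rbp7, a retinoid-binding protein, by 1.47 ± 0.24 (adjusted p = 7.19e-05).

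Tsc22d1, a leucine zipper regulator, was higher at 2 of 6 probe sets, by 1.46 ± 0.12 (adjusted p = 9.93e-12) and 1.15 ± 0.22 (adjusted p = 0.00116), while the other 4 stood between -0.36 and 0.25. Deptor, an inhibitor of mTOR, was higher at 1 of 3, by 1.35 ± 0.23 (adjusted p = 0.000181), and stood at 0.43 and -0.32 at the others. On the AJ side, Galnt2, which starts O-linked glycans, was lower in C3H at 2 of 3, by -1.32 ± 0.27 (adjusted p = 0.00238) and -1.22 ± 0.21 (adjusted p = 0.000323), with -0.13 ± 0.14 at the third. Mtm1, a phosphoinositide phosphatase, was lower at 2 of 3, by -1.16 ± 0.22 (adjusted p = 0.00074) and -1.03 ± 0.19 (adjusted p = 0.000772), with 0.25 ± 0.15 at the third. The share called also varied with brightness: 0.778% of the 5657 probe sets with the lowest mean level were called, beside 2.97% of the 5657 with the highest.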
